A study of Mus musculus with 24 samples.

Results

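The fibrillar collagen genes were described in 3 types of cultured mouse fibroblasts. The 9 genes, of 22380 protein-coding genes in the annotation, were Col1a1, Col1a2, Col2a1, Col3a1, Col5a1, Col5a2, Col5a3, Col11a1 and Col12a1. They were chosen by name, and each was taken as the annotated gene body with 10 kb on each side. ChIP-seq had been performed in mouse embryonic fibroblasts (MEFs, from embryos of embryonic days 10 to 13), cancer-associated fibroblasts from breast tumours of MMTV-PyMT mice (MMTV-CAFs) and fibroblasts grown from skin of the back 10 days after wounding (wound-healing fibroblasts). All cells, controls included, carried the papillomavirus genes E6 and E7 for immortalisation. MEFs and wound-healing fibroblasts were labelled C57BL/6 and MMTV-CAFs FVB/NJ, so fibroblast type and strain cannot be told apart between these groups. WT cells and cells with Prrx1 deletion by a CRISPR guide (SG) were compared in each type, with a non-targeting guide (SgNS) named as the WT control, and MEFs had a further genotype, KI. The labels do not spell out KI. It was read here as the 129S-Prrx1tm1Jfm/Mmmh mutant named in the protocol, which the study describes as a lacZ mutant backcrossed to C57BL6, and whether the MEF WT cells were littermates or guide controls is not stated. Whether the lines were clones or pools is not stated either.

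Of 24 samples, 7 were inputs, and 17 peak lists were analysed: 7 for acetylation of histone H3 at lysine 27 (H3K27ac, a mark of active promoters and enhancers), 7 for trimethylation at lysine 4 (H3K4me3, a mark of promoters) and 3 for PRRX1 in WT cells. Every group had 1 library, so no difference below has a replicate check or a test. The lists give called peaks, not reads, and the sequencing depth is unknown. Lists differed in size, from 29325 H3K27ac summits in KI MEFs to 61603 in SG MMTV-CAFs, and the KI MEF lists also had the lowest median −log10 p for H3K27ac (11.9, against 15.2 to 21.2 in the others). Of 8 fibroblast markers, 8 had an H3K4me3 region over a transcription start site (TSS) in WT and SG MEFs. The number was 6 in WT and SG MMTV-CAFs and in WT wound-healing fibroblasts, and 5 in SG wound-healing fibroblasts. It was 3 in KI MEFs, where Thy1, Fap, Dcn, Fn1 and S100a4 had none. Thy1 and Fap had none in MMTV-CAFs either, nor Fap and Dcn in wound-healing fibroblasts, nor Thy1 in SG wound-healing fibroblasts. Over the 7 lists, 0 or 1 of 7 epithelial, 0 or 1 of 4 endothelial and 0 of 4 blood markers had such a region. H3K27ac summits lay within 10 kb of 2 to 4 epithelial, 1 to 3 endothelial and 1 of the blood markers in each list, with summed −log10 p of 43.8 to 383, 63.0 to 286 and 53.7 to 209, and the part of other cells in the results was not tested. The Prrx1 gene itself kept H3K4me3 (4558 to 15484 bp) and 12 to 27 H3K27ac summits in every list, SG and KI cells included. This does not check the deletion or the KI allele, since an edited gene can keep its chromatin marks.

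Fibrillar collagens are rod-shaped proteins of 3 chains wound into a triple helix, which are secreted as procollagens, trimmed at both ends and packed side by side into the fibrils that give connective tissue its tensile strength. Type I collagen, from Col1a1 and Col1a2, and type III, from Col3a1, are the bulk collagens of skin, scar and tumour stroma, and type V, from Col5a1, Col5a2 and Col5a3, helps to start fibrils and limits their diameter. Col2a1 and Col11a1 encode cartilage collagens, Col11a1 being also known from activated stroma, and Col12a1 encodes a fibril-associated collagen that binds to the surface of type I fibrils rather than forming them. PRRX1 is a paired-type homeodomain factor of mesenchyme, and homeodomains typically bind DNA with a TAAT core.

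PRRX1 summits lay within the gene or its 10 kb flanks for 3 of the 9 genes in MEFs, for 5 in MMTV-CAFs and for 5 in wound-healing fibroblasts, against 7.03%, 22.1% and 16.7% of all protein-coding genes. Long genes hold more summits, and among the 10703 genes with a window at least as long as the shortest of the collagen genes (36.8 kb) the shares were 11.8%, 29.4% and 23.3%. This sets only a lower limit on length and does not match it, since windows of the 9 genes ran to 210 kb. The summits numbered 4, 17 and 11, and 4, 11 and 7 at the study's stated cutoff of −log10 p of 5, below which the lists continue. Col1a1, Col1a2 and Col5a1 had summits in every type. Col3a1 and Col5a3 had them in MMTV-CAFs only, Col5a2 and Col12a1 in wound-healing fibroblasts only, and Col2a1 and Col11a1 in no list.

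The sequences below span PRRX1 summits with 50 bases on each side (mm9, forward strand), shown because each was its gene's highest summit at a site of more than 1 fibroblast type or held the palindromic homeodomain word TAATTA. One summit is shown for each site, from the list named, and capitals mark TAATTA, which reads the same on both strands and was counted without overlap.
Col1a1, 5′ flank, wound-healing fibroblasts, chr11:94790357-94790457: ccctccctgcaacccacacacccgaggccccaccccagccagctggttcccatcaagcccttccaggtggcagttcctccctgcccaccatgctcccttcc
Col1a1, 3′ flank, wound-healing fibroblasts, chr11:94816341-94816441: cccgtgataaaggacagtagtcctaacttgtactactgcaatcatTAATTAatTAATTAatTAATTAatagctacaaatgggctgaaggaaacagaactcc
Col1a2, intron 5, MMTV-CAFs, chr6:4462209-4462309: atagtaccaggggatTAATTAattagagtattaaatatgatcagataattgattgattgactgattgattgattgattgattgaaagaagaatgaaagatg
Col1a2, intron 9, MMTV-CAFs, chr6:4465789-4465889: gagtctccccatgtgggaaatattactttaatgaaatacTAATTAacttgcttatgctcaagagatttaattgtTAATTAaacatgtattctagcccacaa
Col1a2, intron 39, MMTV-CAFs, chr6:4483250-4483350: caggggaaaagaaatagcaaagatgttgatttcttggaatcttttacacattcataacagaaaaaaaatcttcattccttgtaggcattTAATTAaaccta
Col5a1, intron 1, MEFs, chr2:27767901-27768001: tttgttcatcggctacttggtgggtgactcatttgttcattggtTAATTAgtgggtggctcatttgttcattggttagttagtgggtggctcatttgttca
Col5a1, intron 8, MMTV-CAFs, chr2:27808050-27808150: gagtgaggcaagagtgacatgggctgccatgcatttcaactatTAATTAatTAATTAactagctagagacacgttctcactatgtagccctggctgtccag
Col5a2, intron 30, wound-healing fibroblasts, chr1:45458230-45458330: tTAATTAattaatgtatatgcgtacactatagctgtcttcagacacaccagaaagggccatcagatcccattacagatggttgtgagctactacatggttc
Col5a3, 3′ flank, MMTV-CAFs, chr9:20566930-20567030: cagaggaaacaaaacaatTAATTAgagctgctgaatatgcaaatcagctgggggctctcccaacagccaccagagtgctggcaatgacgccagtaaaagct
Col12a1, intron 1, wound-healing fibroblasts, chr9:79564573-79564673: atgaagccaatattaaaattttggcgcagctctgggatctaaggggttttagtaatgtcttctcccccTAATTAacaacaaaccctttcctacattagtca

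Sites near Col1a1 and Col5a1 were listed in all 3 types. The Col5a1 site lay in intron 1, about 26.0 kb from the 5′ end (26001 to 26041 bp), and had −log10 p of 16.0 in MEFs, 13.6 in MMTV-CAFs and 12.7 in wound-healing fibroblasts, the highest value at any of the 9 genes in MEFs and MMTV-CAFs and equal to the highest in wound-healing fibroblasts. Its rank among all PRRX1 summits was 438 of 3048, 760 of 8000 and 450 of 5698. The Col1a1 site lay in the 3′ flank, 18827 to 18919 bp from the 5′ end, with −log10 p of 6.5, 7.56 and 8.31. The MMTV-CAF and wound summits lay beside 3 copies of TAATTA in a short tandem run, and the MEF summit, 66 to 92 bp away, held these copies within 100 bp but not within 50 bp.

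Other sites were shared by a pair of types. A site about 7.1 kb upstream of Col1a1 had −log10 p of 7.82 in MMTV-CAFs and 12.7 in wound-healing fibroblasts and held neither TAATTA nor ATTA within 50 bp, a stretch of 67.3% G and C. The Col1a2 intron 5 site had 7.99 in MEFs and 8.78 in MMTV-CAFs, and the Col5a1 intron 8 site 8.06 in MMTV-CAFs and 3.05, below the stated cutoff, in wound-healing fibroblasts. In Col1a2 intron 1, summits of MEFs (5.98) and wound-healing fibroblasts (6.32) shared a site, and summits of MMTV-CAFs (3.57) and wound-healing fibroblasts (3.66), both below the cutoff, shared another. Col1a2 held the most summits of the 9 genes, 2 in MEFs, 6 in MMTV-CAFs and 4 in wound-healing fibroblasts, and those within 2.8 kb of its 5′ end lay 798 to 2722 bp downstream of it, at −log10 p of 3.57 to 6.32. Among sites of 1 type, the Col5a2 intron 30 summit had −log10 p of 11.5 and lay 69.5 kb from the nearest H3K27ac summit of WT wound-healing fibroblasts, while the Col12a1 intron 1 summit had 7.3 and lay 145 bp from one.

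The word TAATTA stood within 50 bp of 2 of 4 summits in MEFs, 7 of 17 in MMTV-CAFs and 4 of 11 in wound-healing fibroblasts. Over all PRRX1 summits of each list the shares were 57.3%, 25.3% and 31.7%, and 2 kb to either side of them 3.49%, 2.86% and 3.08%. The shorter word ATTA, counted on both strands and also inside TAATTA, stood within 50 bp of 3, 12 and 5 summits of the 9 genes, where all summits gave 85.8%, 69.3% and 68.3% and positions 2 kb away 51.7%, 46.1% and 46.9%. A match is a description of letters, not a binding site. An H3K27ac summit of the same WT cells lay within 500 bp of 1 of 4, 6 of 17 and 5 of 11 PRRX1 summits of the 9 genes (over all summits 20.5%, 45.4% and 33.2%), and 1, 8 and 5 stood inside an H3K4me3 region (all summits 7.02%, 44.7% and 28.2%). At the sites of all 3 types the nearest WT H3K27ac summit was 3269, 1005 and 1189 bp away at Col1a1 and 3816, 4467 and 4277 bp away at Col5a1, in the order MEFs, MMTV-CAFs and wound-healing fibroblasts, so neither site coincided with an H3K27ac summit in any type.

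**Figure D1:**
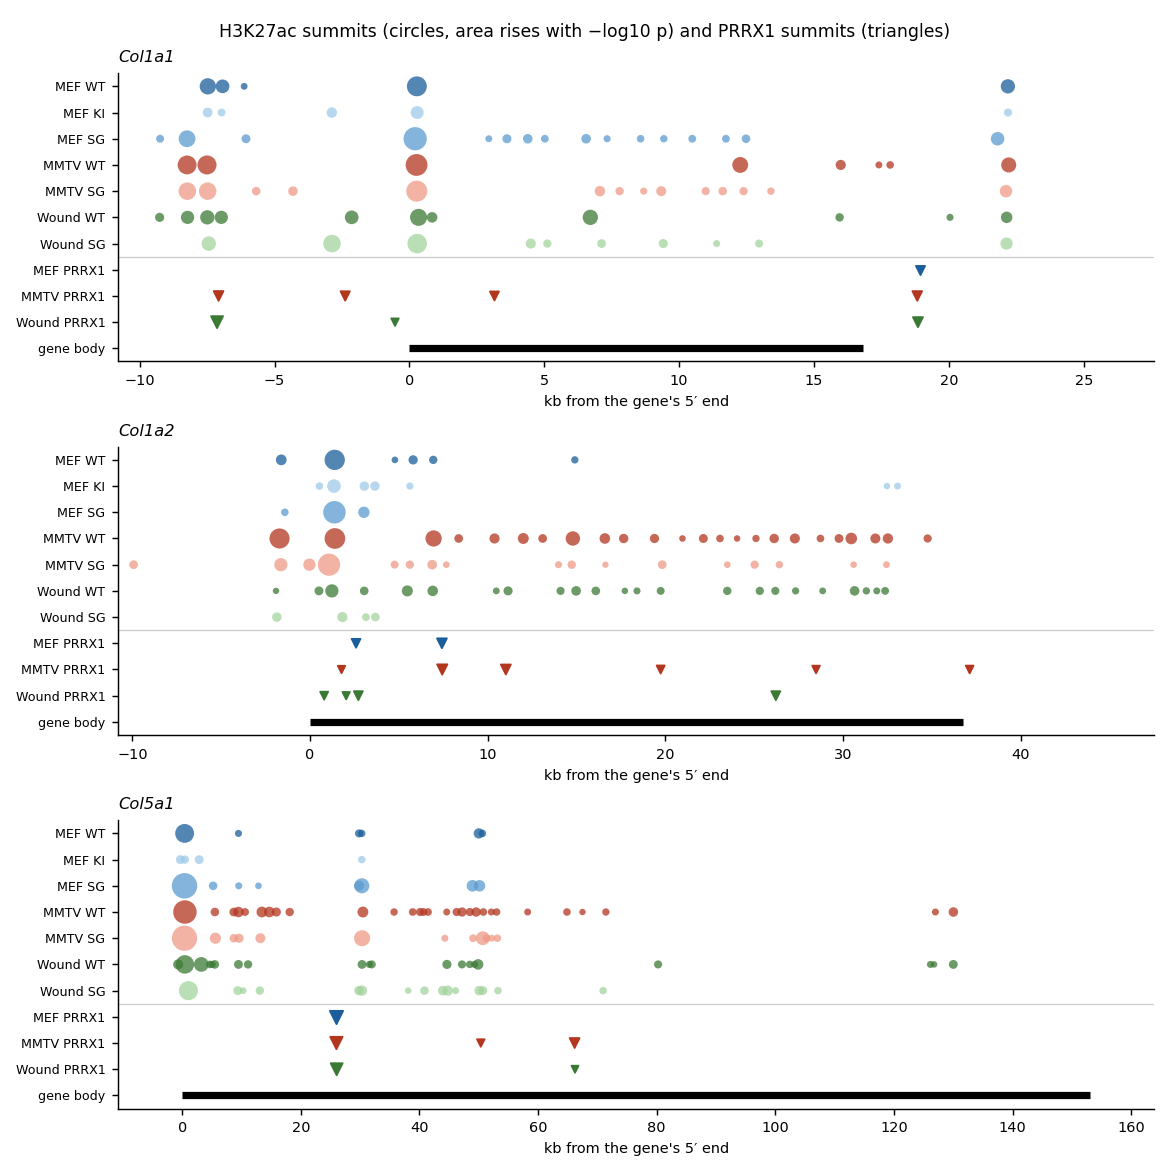
H3K27ac summits (circles, 1 row a list) and WT PRRX1 summits (triangles) over Col1a1, Col1a2 and Col5a1 with 10 kb each side, by distance from the 5′ end in kb; the area of a symbol rises with −log10 p and the bar is the gene body. WT MMTV-CAFs and WT wound-healing fibroblasts had 24 and 23 circles in the Col1a2 panel, and wound-healing fibroblasts with Prrx1 deletion had 4, all within 5 kb of the 5′ end.

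Among the WT lists, H3K4me3 at the type I, III and V genes was broadest in MMTV-CAFs. The width given is that of the widest region over an annotated TSS. At Col1a1 (chr11:94797538-94814356) it was 4841 bp in WT MEFs, 14732 bp in WT MMTV-CAFs and 9927 bp in WT wound-healing fibroblasts, with fold enrichment over input of 5.31, 8.82 and 5.57. The MMTV-CAF region ran from -4464 to 10267 bp relative to the 5′ end, and H3K4me3 covered 88.4% of the gene body, against 25.0% in MEFs and 44.0% in wound-healing fibroblasts. At Col1a2 (chr6:4454814-4491543) the widths were 3648, 21610 and 3446 bp, the MMTV-CAF region standing at percentile 100.0, rounded, of all protein-coding genes. The MEF and wound regions of Col1a2 began 270 and 371 bp past the annotated 5′ end, over internal starts. The order of the types thus differed between the chains of type I collagen, since Col1a1 was wider in wound-healing fibroblasts than in MEFs and Col1a2 was not.

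Col5a1 (chr2:27741945-27895034) followed the order of Col1a1, with 5199, 12671 and 7163 bp. Col5a2 (chr1:45431166-45560127) had 4230, 9113 and 2643 bp and Col3a1 (chr1:45368383-45406551), which lies 24.6 kb from it in the opposite orientation, 3709 bp in MEFs and 7979 bp in MMTV-CAFs. In wound-healing fibroblasts no region lay over a Col3a1 TSS, but a region of 2352 bp began 9 bp past the 5′ end in WT cells and one of 3319 bp 22 bp past it in SG cells, so the listed 0 rests on these few bases. The third type V gene, Col5a3 (chr9:20574494-20619511), had no TSS region in MEFs, where 384 bp began 33 bp past the TSS in WT cells, 1114 bp in MMTV-CAFs and 575 bp in wound-healing fibroblasts.

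The cartilage genes stood apart from these. Col11a1 (chr3:113733458-113923636) had 2932 bp in WT MEFs and 2908 bp in WT wound-healing fibroblasts at 5.08-fold and 6.59-fold enrichment, and no TSS region in WT or SG MMTV-CAFs, where WT cells had only 508 bp beginning 1176 bp past the 5′ end. Col2a1 (chr15:97806033-97835155) had narrow regions of low enrichment, 856, 644 and 1381 bp at 2.27-fold to 3.66-fold. In MEFs and wound-healing fibroblasts these lay over an internal start between 1965 and 3345 bp past the 5′ end. Of 6 cartilage markers fixed for comparison, 1 had an H3K4me3 region in each of the 7 lists. Among genes with a region in every WT list, Col12a1 (chr9:79446798-79566638) varied least, with 2333, 3208 and 2673 bp.

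Against WT MEFs, WT MMTV-CAFs had a width at least 1.5-fold higher at 6 of 9 genes (30.4% of 12376 genes with a region in either list) and lower at 1, Col11a1 (7.24%). The median log2 ratio over the 7 genes with a region in both was 1.11, against 0.40 over all genes. WT wound-healing fibroblasts were higher than MEFs at 3 of 9 (9.0%) and lower at 2 (7.9%), with medians of 0.20 and -0.06, and lower than MMTV-CAFs at 5 (36.0%) and higher at 2 (9.64%), with medians of -0.82 and -0.47. A gene with a region in only 1 of the lists counts as past the fold. The fold enrichment gave another picture than the width, since its median log2 ratio from MEFs to MMTV-CAFs was 0.27 over the 7 collagen genes and 0.78 over all genes. Regions over 4 kb stood at 3 of the 8 genes with a TSS region in WT MEFs, 5 of 8 in WT MMTV-CAFs and 2 of 8 in WT wound-healing fibroblasts, where 9.45%, 28.9% and 8.83% of all genes with a TSS region had one.

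**Figure D2:**
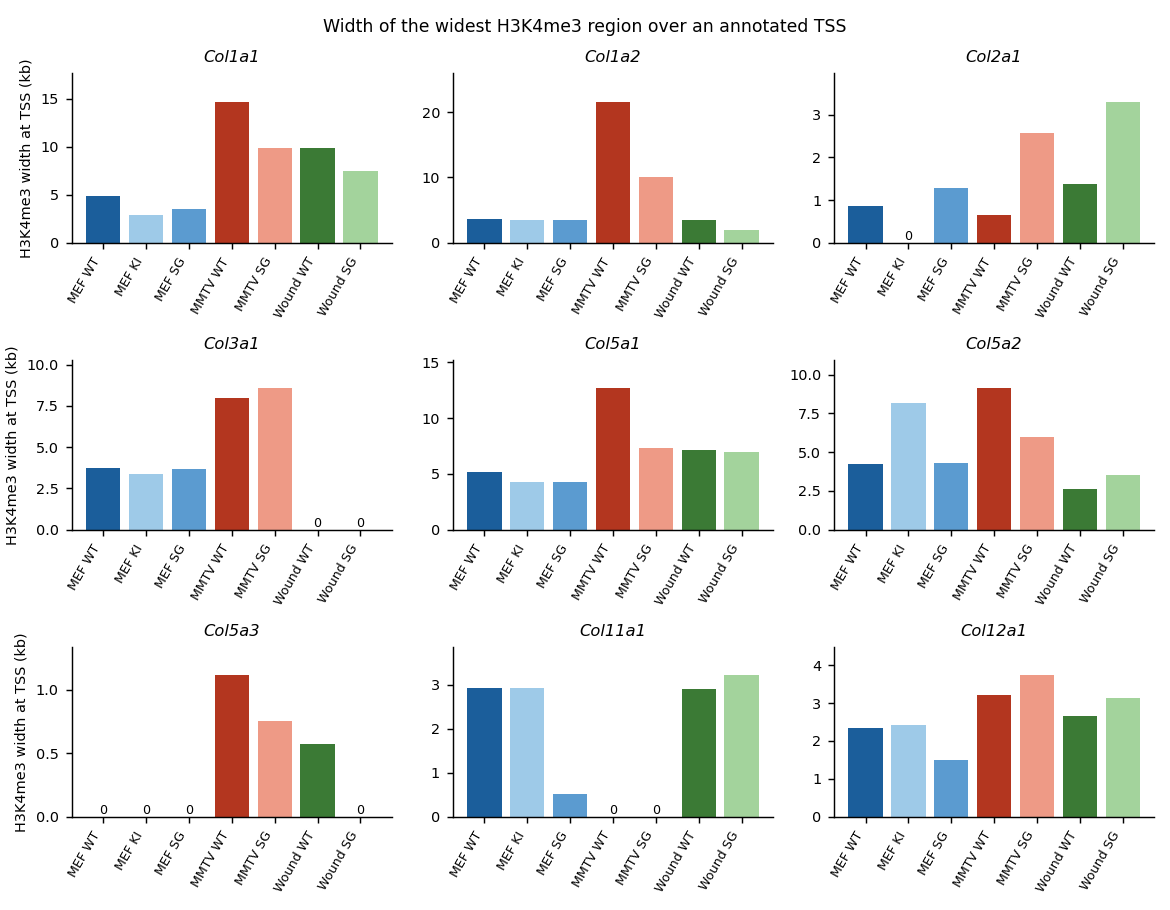
Width in kb of the widest H3K4me3 region over an annotated TSS of each gene (panels with their own axes, from 0), 1 bar for each of 7 lists, each of 1 library; 0 marks a list with no such region. Col1a1, Col1a2, Col5a1 and Col5a2 had their widest region in WT MMTV-CAFs, and Col11a1 had none in MMTV-CAFs.

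Per kb, H3K27ac was densest at Col1a1 in each WT list. The 9 genes held 36 H3K27ac summits in WT MEFs, 99 in WT MMTV-CAFs and 65 in WT wound-healing fibroblasts, and the summed −log10 p over the gene and its flanks is used below as the level, divided by the length in kb when genes are compared. Per kb, Col1a1 had 5.76, 9.9 and 8.74, at percentiles 96.0, 98.7 and 99.7 of all protein-coding genes. Col1a2 had 2.54, 9.62 and 4.99 and Col3a1 2.88, 6.39 and 1.15, so Col3a1 stood above Col1a2 in MEFs and below it elsewhere. The long type V genes had lower values per kb, Col5a1 0.726, 2.56 and 1.81 (percentiles 52.5, 75.5 and 81.8) and Col5a2 0.815, 1.08 and 0.195 (54.3, 55.7 and 45.8). Col12a1 had 0.783, 0.42 and 0.236, Col5a3 0.383, 0.928 and 0.169, Col11a1 0.0883 in MEFs alone, and Col2a1 no WT summit. With 1 library a list, neighbours in this order cannot be separated from the spread between libraries.

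Most WT summits of the 9 genes lay in introns, and their number differed between types. At Col1a2 the count was 6 in WT MEFs, 24 in WT MMTV-CAFs and 23 in WT wound-healing fibroblasts, with summed −log10 p of 144, 546 and 283. At Col5a1 it was 6, 29 and 20 with sums of 126, 442 and 313, and at Col1a1 5, 8 and 11 with sums of 212, 364 and 322. Col3a1 had 5, 19 and 5 summits with sums of 168, 372 and 66.7, so its wound level was the lowest of the 3 types, as it was for Col5a2 (121, 161 and 29.1) and Col12a1 (110, 58.8 and 33.0). Introns held 21 of 36, 74 of 99 and 46 of 65 of the WT summits, and 8, 12 and 17 lay within 1 kb of an annotated TSS. No such shares were calculated over all summits, so these are not read as particular to the collagen genes. The annotated starts include internal ones, as for the Col1a2 summits 25319 and 30655 bp past the 5′ end in WT wound-healing fibroblasts.

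From MEFs to MMTV-CAFs the sum was at least 1.5-fold higher at 5 of the 8 genes with a summit in either list (33.2% of all genes tested) and lower at 2 (11.9%). Their median log2 ratio was 0.95 against 0.30 over all genes. From MEFs to wound-healing fibroblasts it was higher at 3 of 8, Col1a1, Col1a2 and Col5a1 (4.75%), and lower at 5 (47.3%), with medians of -1.09 and -0.54. From MMTV-CAFs to wound-healing fibroblasts it was lower at 5 of 7 (67.7%) and higher at 0 of 7 (4.2%), with medians of -0.94 and -0.86. The last comparison of medians gives no gap between the collagen genes and the whole list.

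Joined where neighbours lay within 500 bp, the summits of all 7 lists made 165 sites at the 9 genes. Of these, 7 were in every list, 16 in all 3 WT types and 70 in 1 list only. Such shares were not calculated over the whole lists, so none is read as particular to the collagen genes. The 7 were at the start of Col1a1 and 22.2 kb downstream of it in the 3′ flank, in intron 1 of Col1a2, in Col3a1 intron 1 at 302 and 4138 bp from the 5′ end, in Col5a1 intron 1 about 30.3 kb from the 5′ end, and at the start of Col12a1. The Col1a1 3′ site lay within 1 kb of the start of an annotated Y_RNA. The start of Col5a1, a site of 6 lists and so not among the 7, is shared with the non-coding gene 2810430I11Rik. Neither site can thus be assigned to the collagen gene alone. Stitched into clusters across the gap customary for super-enhancer calls, the summits over Col5a1 in WT MMTV-CAFs formed a cluster of 53 summits over 184 kb, reaching beyond the gene, that ranked 7 of 18506 by summed −log10 p. Col1a2 ranked 59 in the same list and 58 of 13901 in WT wound-healing fibroblasts but 1529 of 18313 in WT MEFs. Col1a1 ranked 142, 29 and 321 in MMTV-CAFs, wound-healing fibroblasts and MEFs.

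**Figure D3:**
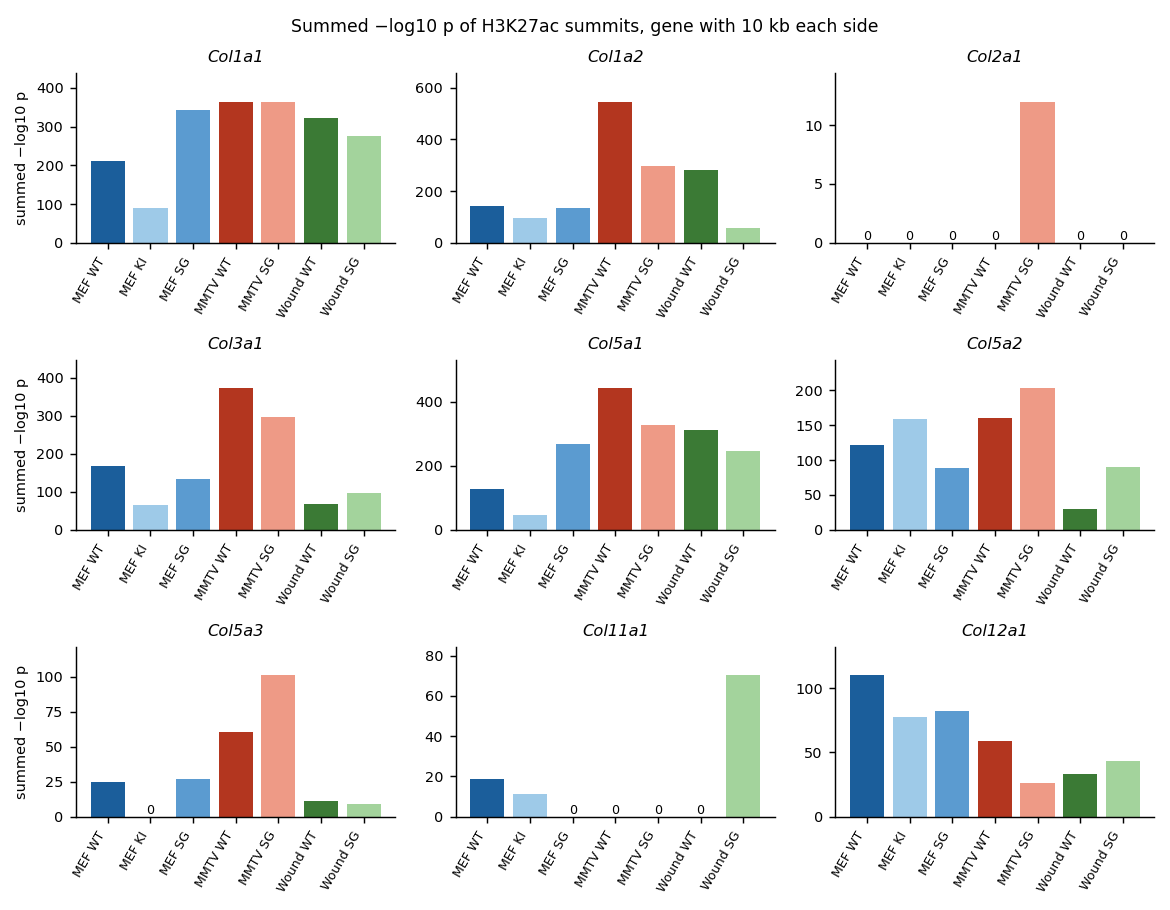
Summed −log10 p of the H3K27ac summits within each gene and 10 kb each side (panels with their own axes, from 0), 1 bar for each of 7 lists of 1 library; 0 marks a list with no summit. Col1a2 in wound-healing fibroblasts went from 283 in WT to 56.1 in SG cells, and Col11a1 in the same cells from 0 to 70.2.

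With Prrx1 deletion in wound-healing fibroblasts, Col1a2 had the largest drop in H3K27ac among the collagen genes. Its summits went from 23 to 4 and the sum from 283 to 56.1, a 4.71-fold lower value with 5 added to each sum, and the highest cluster over it went from rank 58 to 6746. Only 2 of the 23 WT summits had a summit within 500 bp in the SG list. The width of the widest H3K4me3 region over a TSS went from 3446 to 1985 bp, 1.74-fold lower. In SG cells this region ran from 340 to 2324 bp past the 5′ end, and a further region of 1158 bp from 2824 to 3981 bp. The WT region ran from 371 to 3816 bp, so the lower width reflects a split and not a shorter span. Over the whole window, H3K4me3 covered 6573 bp in WT and 3449 bp in SG cells. No other collagen gene had an H3K27ac sum at least 1.5-fold lower, which makes 1 of 8, and over all genes tested the share was 3.04%. The median over all genes rose, with a log2 ratio of 0.59, and was 0.07 over the 8 collagen genes, 6 of which lay below the median of all genes. Col1a1 (322 to 277) and Col5a1 (313 to 246) kept their levels within 1.5-fold while 50.4% of all genes were higher by that much. Divided by the median ratio of all genes, both fell past the threshold, at log2 ratios of -0.80 and -0.93.

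Col5a2 and Col11a1 were the 2 of 8 that were higher, a smaller share than the 50.4% of all genes. Col5a2 went from 29.1 to 90.2, 2.79-fold. Col11a1, with no WT summit, had 7 SG summits with a sum of 70.2, all within 1 cluster of 6.2 kb. Both genes also had somewhat wider H3K4me3, from 2643 to 3516 bp and from 2908 to 3218 bp. For the H3K4me3 width in these cells, 2 of 8 genes were lower, Col1a2 and Col5a3, which had a region of 575 bp in WT cells and none over the TSS in SG cells (3.98% of all genes), and 1 was higher, Col2a1, from 1381 to 3307 bp (14.2%). The Col1a2 call rests on the split of its region. The Col5a3 call rests on 3 bp, since SG cells had a region of 636 bp, at 4.81-fold against 4.79-fold enrichment, that began 3 bp past the TSS. At Col2a1 the SG region spanned the place of 2 separate WT regions, of 489 and 1381 bp.

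In MMTV-CAFs, Prrx1 deletion went with a narrower H3K4me3 TSS region at Col1a2 and Col5a1 and a split one at Col5a2. The fold enrichment at these 3 genes was higher and not lower. Col1a2 went from 21610 to 10048 bp and Col5a1 from 12671 to 7330 bp, 2.15-fold and 1.73-fold lower. Col5a2 went from 9113 to 6006 bp, 1.52-fold lower, where a separate SG region of 2510 bp covered most of the rest of the WT span. Over all H3K4me3-covered bases of the Col5a2 window the log2 ratio was 0.13. Col1a1 went from 14732 to 9921 bp, just inside the threshold at a log2 ratio of -0.57. The enrichment of these regions was 5.76 and 8.17 at Col1a2, 9.81 and 13.3 at Col5a1, 6.83 and 8.61 at Col5a2 and 8.82 and 8.6 at Col1a1, in WT and SG cells. The enrichment rose over all genes too, with a median log2 ratio of 0.15, against 0.38 over the 8 collagen genes. In all, 3 of 8 genes (8.08% of all genes) had a narrower TSS region, with Col5a2 counted through its split, and 1 a wider one, Col2a1 (8.21%). The median log2 ratio of the width was -0.57 against -0.05 over all genes. Over all H3K4me3-covered bases of the windows the median of the collagen genes was -0.08, with Col1a1 at -0.89, Col1a2 at -1.47 and Col5a1 at -1.55, so the lower median depends on the use of the TSS region. The Col2a1 region went from 644 bp at the 5′ end to 2578 bp over an internal start, where the WT list had 451 bp. Col3a1 (7979 and 8563 bp) and Col12a1 (3208 and 3739 bp) stayed within the threshold.

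H3K27ac in MMTV-CAFs fell past the threshold at Col1a2, from 546 to 295 with 24 and 17 summits, and at Col12a1, from 58.8 to 25.8 with 5 and 1 summits (2 of 8; 8.83% of all genes). It was higher at Col5a3, 1.61-fold from 60.4, with 4 and 7 summits, and at Col2a1, listed at 0 in WT and with 1 summit of 12.0 in SG cells (2 of 8; 28.8%). The Col12a1 ratio turned positive, to 0.19 on the log2 scale, with 50 kb on each side, and to 2.62 in lists of equal size, where 0 of the 5 WT summits remained, so that call rests on weak summits. Col5a1 had 29 summits in WT and 12 in SG cells, with sums of 442 and 326, and Col1a1 8 and 14 with 364 and 365. Medians were -0.16 for the 8 genes and 0.25 for all genes.

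In MEFs, SG and KI cells were both compared with the same WT lists, so these comparisons are not independent. With SG, the H3K27ac sum was higher at Col1a1 (212 to 343, 5 to 16 summits) and Col5a1 (126 to 268), 2 of 8 against 41.6% of all genes, and lower at Col11a1 (18.6 to 0), 1 of 8 against 5.71%. The Col11a1 call rests on 2 weak WT summits, which are absent from lists of equal size. At Col1a1, 11 SG summits stood along the gene body between 2944 and 12478 bp from the 5′ end, at −log10 p of 7.09 to 16.2, where WT MEFs had none, and with no flanks the log2 ratio was 1.49 in place of 0.68. Col1a2 (144 to 134), Col3a1 (168 to 133), Col5a2 (121 to 88.7) and Col12a1 (110 to 82.4) stayed within 1.5-fold, and 6 of the 8 genes lay below the median of all genes (0.48). The H3K4me3 width was lower at 2 of 8 (8.8% of all genes) and higher at 0 (1.37%). The lower genes were Col11a1, whose 2932 bp region became 519 and 912 bp pieces, and Col12a1, from 2333 to 1491 bp.

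In KI MEFs nearly all genes had lower sums, 89.5% of 14043 by at least 1.5-fold and 2.94% higher. Of the collagen genes 4 of 8 were lower, namely Col1a1 (212 to 88.9), Col3a1 (168 to 64.0), Col5a1 (126 to 47.5) and Col5a3 (24.9 to 0), and 0 were higher. Their median log2 ratio was -0.89 and that of all genes -1.62, and 7 of the 8 lay above the latter. Divided by the median of all genes, Col1a1, Col3a1 and Col5a1 came out higher in KI, at log2 ratios of 0.41, 0.29 and 0.30, so the direction depends on this scaling. Col5a2 had a larger sum in KI, 159 against 121, with 10 summits against 3, and its cluster went from rank 2175 to 198. Ranks, of 18313 clusters in WT and 13518 in KI, also rose over Col5a1 (4844 to 61), Col1a1 (321 to 143), Col1a2, Col11a1 and Col12a1. The Col5a1 cluster in KI, with a sum of 209, reached beyond the gene and its flanks. Over Col3a1 the rank fell (659 to 1929), and Col5a3 had no cluster in KI. The H3K4me3 region of Col5a2 also widened, from 4230 to 8144 bp, 1.93-fold and to percentile 100.0 of all genes. This made 1 of 8 genes wider, when 1.05% of all genes were, and 2 of 8 narrower, Col1a1 (4841 to 2946 bp) and Col2a1 (856 bp to none), when 41.7% were. The weaker KI lists described above move with these values, and their part in them was not tested.

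**Figure D4:**
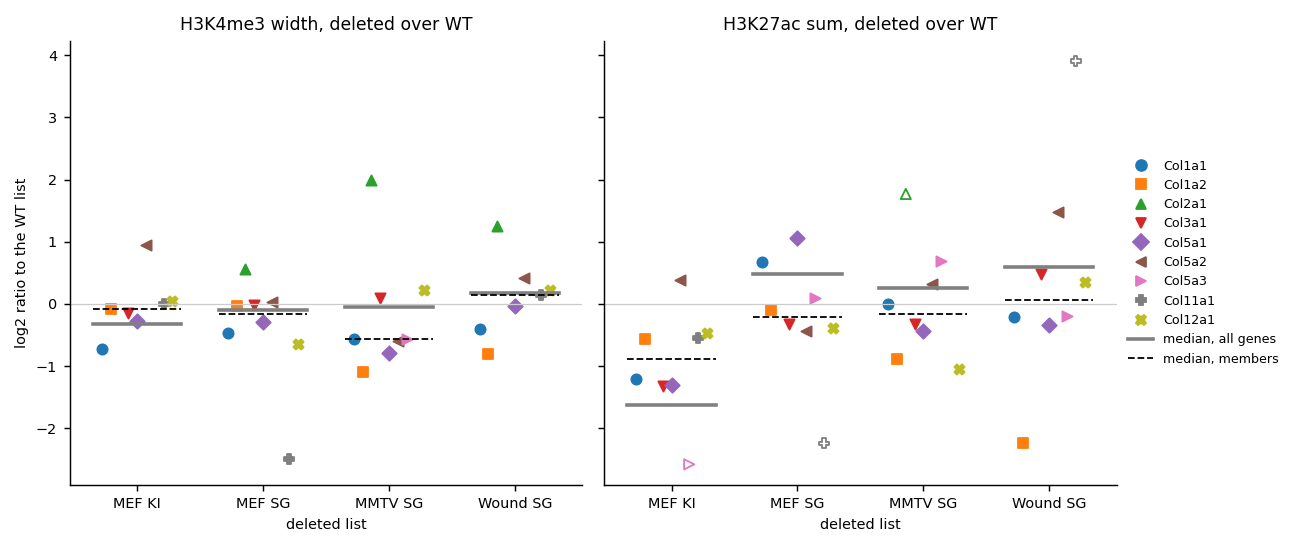
Log2 ratio of each SG or KI list (both labelled deleted in the panels) to the WT list of the same cells for the H3K4me3 width (left, genes with a TSS region in both lists) and the summed H3K27ac −log10 p with 5 added (right), 1 symbol a gene; open symbols had a sum of 0 in 1 list, so that their place depends on the 5 added. Grey bars are medians over all genes and dashed lines over the collagen genes: for H3K27ac the dashed line lies above the grey one in KI MEFs (-0.89 and -1.62) and below it in the 3 SG lists.

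The same comparison was made summit by summit. A WT H3K27ac summit at the 9 genes had a summit within 500 bp in the KI or SG list in 18 of 36 cases in KI MEFs (50.0%, Wilson 95% interval 34.5 to 65.5), 20 of 36 in SG MEFs (55.6%, 39.6 to 70.5), 46 of 99 in SG MMTV-CAFs (46.5%, 37.0 to 56.2) and 17 of 65 in SG wound-healing fibroblasts (26.2%, 17.0 to 38.0). Over all WT summits the shares were 44.3%, 68.2%, 63.9% and 67.7%. The intervals cover counting error only, and summits of 1 library that sit beside each other are not independent. Summits at the collagen genes were weaker than average, with median −log10 p of 15.0 in WT MEFs and 11.7 in WT wound-healing fibroblasts against 18.5 and 15.2 over all summits. Among WT wound summits below the median of their list, 8 of 44 at the collagen genes and 56.2% of all had a counterpart, and above the upper quartile 4 of 9 and 84.0%. In MMTV-CAFs these were 20 of 65 and 46.8%, and 13 of 14 and 87.8%. Of the 48 wound summits at the collagen genes without a counterpart, 21 were at Col1a2 and 16 at Col5a1.

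**Figure D5:**
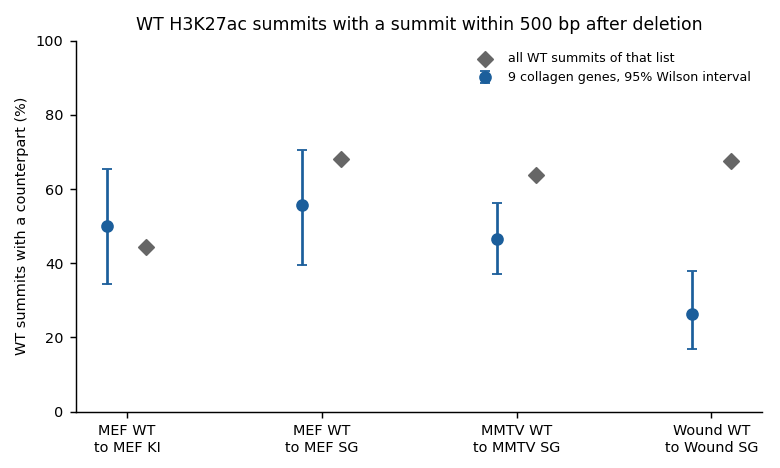
Share in percent of WT H3K27ac summits with a summit within 500 bp in the KI or SG list, for the 9 collagen genes (circles, with Wilson 95% intervals) and for all summits of the WT list (diamonds). The share at the collagen genes was 26.2% in wound-healing fibroblasts, where that of all summits was 67.7%, and 50.0% and 44.3% in KI MEFs.

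KI and SG cells also had H3K27ac summits at the collagen genes with no WT counterpart: 24 of 41 in KI MEFs (58.5%), 22 of 41 in SG MEFs (53.7%), 31 of 77 in SG MMTV-CAFs (40.3%) and 38 of 53 in SG wound-healing fibroblasts (71.7%), where all summits gave 30.5%, 30.0%, 43.6% and 48.4%. At Col1a1 the WT and SG wound lists thus had nearly the same number of summits, 11 and 10, but 5 of the 11 had a counterpart.

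The PRRX1 sites can be set beside these values. Col1a2 had 4 PRRX1 summits in WT wound-healing fibroblasts, and the one in intron 35 lay 27 bp from a WT H3K27ac summit and 22.5 kb from the nearest in SG cells. Its intron 1 summits, at 2036 and 2722 bp, lay 803 and 331 bp from WT and 211 and 427 bp from SG summits. The remaining summit, 798 bp past the 5′ end, lay 294 bp from a WT and 1027 bp from an SG summit. Col5a2, the gene with higher H3K27ac in SG wound cells, had 1 distant PRRX1 summit, and Col11a1 had none. In MMTV-CAFs, Col1a2 with 6 PRRX1 summits had lower H3K27ac and Col1a1 with 4 did not differ (364 and 365). With 9 genes and 1 library a list, no relation between PRRX1 summits and the change in H3K27ac was calculated.

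Other collagens and the enzymes of collagen maturation gave a wider setting. Of 12 collagen genes outside the fibrillar group, the H3K27ac sum was lower and higher at 11 and 1 in KI MEFs, 1 and 6 in SG MEFs, 1 and 2 in SG MMTV-CAFs, and 2 and 3 of 11 with a summit in SG wound-healing fibroblasts. Over all genes the shares lower and higher were 89.5% and 2.94%, 5.71% and 41.6%, 8.83% and 28.8%, and 3.04% and 50.4%, in the same order. In SG wound-healing fibroblasts, Col4a1, a chain of basement membrane collagen, went from 283 to 155 and Col8a1, a short-chain collagen, from 74.1 to 276. The H3K4me3 width of the other collagens was lower and higher at 6 and 0 of 8, 3 and 0 of 8, 2 and 0 of 8 and 2 and 1 of 10. Col4a1 and Col4a2 had equal widths in every list (4740 and 2440 bp in WT and KI MEFs) and were each counted, so these counts are not of independent regions. Of 22 genes that modify, chaperone, trim or cross-link collagen (22 of 23 listed were found), the sum at 19 and 0 was lower and higher in KI MEFs, 0 and 9 in SG MEFs, 4 and 4 in SG MMTV-CAFs and 2 and 5 in SG wound-healing fibroblasts, and the width at 13 and 0, 2 and 0, 5 and 0, and 0 and 6. For the width, all genes gave 41.7% and 1.05%, 8.8% and 1.37%, 8.08% and 8.21%, and 3.98% and 14.2%. The counts in KI and SG MEFs were thus close to the shares of all genes for H3K27ac, and nothing particular to either list is read from them. Plod2, a lysyl hydroxylase, went from 26.5 to 99.2 in the wound cells, Bmp1, which trims procollagen, from 109 to 69.6 there and from 204 to 128 in MMTV-CAFs, and Pcolce, an enhancer of that trimming, from 314 to 192 in MMTV-CAFs. PRRX1 summits lay at 4, 5 and 6 of the 12 other collagens and at 2, 10 and 7 of the 22 maturation genes in MEFs, MMTV-CAFs and wound-healing fibroblasts, where all genes gave 7.03%, 22.1% and 16.7%. Genes with windows of at least 36.8 kb gave 11.8%, 29.4% and 23.3%, and window length was not matched for these sets either.

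Likeness to other genes was measured as the mean absolute difference of percentile ranks over the 14 histone lists, for H3K4me3 width and H3K27ac sum per kb. The nearest protein-coding genes were Nfe2l1, Mllt11 and Fam129b for Col1a1, within 1.40 percentile points, Ep300, Pcdhgc5 and Foxo3 for Col5a1, within 3.35, and Man1a2, Atxn1 and Zfp532 for Col5a2, within 4.79. Col1a2 had Pdgfrb, Ctnnd1 and Fam134a, within 7.04, and Col3a1 Il1rl1, Plscr2 and A430110N23Rik, within 12.2, the least close of the 9. The Col3a1 result rests partly on H3K4me3 percentiles of 0.0 in both wound lists, where regions began 9 and 22 bp past the 5′ end. Zfp943, Gbf1 and Baz1a were nearest to Col12a1 (5.45), Piwil4, Ptger1 and Cdk15 to Col5a3 (6.65), Pax2, Ybx2 and Prex1 to Col2a1 (4.16) and Lphn3, Odz3 and Ptprd to Col11a1 (8.81). None of the 9 had another of the 9 among its nearest 3.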

How the data were processed

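Sample titles gave the groups. Peaks were called by the authors in MACS2 with input as control, after trimming (Trimmomatic), mm9 alignment (Bowtie) and duplicate removal (Picard), and there is 1 list a library. H3K27ac and PRRX1 were deposited as 1 bp summits with a −log10 p. For H3K4me3 the deposited values are broad regions, their fold over input as a ratio, and −log10 of both p and q. PRRX1 lists reach down to a −log10 p of 3.0, below the stated cutoff of 5, and whether they pool the study's duplicates is not stated. A summed −log10 p grows with depth, which is unknown.

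Genes were matched to GENCODE annotation of mm9 (0 intervals beyond a chromosome end), and sequences were read from that build. Ratios, with 5 added to sums, were called past 1.5-fold against all protein-coding genes listed in either library. The named genes were the 9 collagens, genes with a start in their windows, 2 lists of collagen genes and the 3 nearest genes by likeness. Members and lists were chosen with earlier results of these data known. Scripts (pandas 2.3.3, pysam 0.24.0) were tested on simulated data. Other thresholds, windows, list sizes and scalings were tried, and inputs were not used here.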

Additional observations from a re-analysis of the deposited data

Results flagged for a closer look

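Col11a1 had opposite differences in H3K27ac between SG and WT cells of different types. The summed −log10 p was 70.2 higher in SG wound-healing fibroblasts (0 in WT, 70.2 in SG) and 18.6 lower in SG MEFs (18.6 in WT, 0 in SG). The MEF value rests on 2 WT summits, of −log10 p 8.13 and 10.4. At −log10 p of at least 10 the sums were 10.4 and 0 in WT and SG MEFs and 0 and 38.5 in wound-healing fibroblasts. In lists of equal size they were 0 and 0 in MEFs and 0 and 28.0 in wound-healing fibroblasts, so no opposite difference remained. Each group has 1 library, and the difference was not tested.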

How the results depend on the processing

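Of 109 alternative values of the summary results, 91 stayed within the stated margin (1.5-fold for ratios and counts, the Wilson interval for shares). Divided by the median ratio of all genes, the median log2 H3K27ac ratio of the collagen genes turned from -0.89 to 0.73 in KI MEFs, with Col1a1 at 0.41, Col3a1 at 0.29 and Col5a1 at 0.30, and became -0.52 in SG wound-healing fibroblasts and -0.08 from MMTV-CAFs to wound-healing fibroblasts. From MEFs to wound-healing fibroblasts it was -0.32 in lists of equal size. With all H3K4me3-covered bases in the window, an alternative chosen after seeing the data, the median from MMTV-CAFs to wound-healing fibroblasts was -1.67 and Col5a2 in SG MMTV-CAFs turned to 0.13. Col12a1 H3K27ac in SG MMTV-CAFs turned to 2.62 in lists of equal size and 0.19 with 50 kb flanks. PRRX1 summits at the 9 genes numbered 11 in MMTV-CAFs and 7 in wound-healing fibroblasts at −log10 p of at least 5, and 1, 1 and 3 in the 3 types at 10. They numbered 11 in MMTV-CAFs without flanks and 7, 29 and 18 with 50 kb flanks. The share of WT summits with a counterpart in SG MMTV-CAFs was 34.3% within 250 bp, 59.6% within 1 kb and 35.9% in lists of equal size, and 38.5% within 1 kb in SG wound-healing fibroblasts. Beyond the settings' own construction, the cause was not tested. Col1a2 in SG wound-healing fibroblasts stayed between -1.39 and -2.83. No paired analysis was possible because every group has 1 library. Depth limits every list, and a peak absent from a list may lie just below its threshold.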
